A study of Mus musculus with 6 samples.

Results

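The cytosolic ribosomal protein genes were followed in MC3T3-E1 cells, a line of pre-osteoblasts derived from mouse calvaria. Members were taken by symbol, as every row named Rps, Rpl or Rplp with a number and at most a copy suffix, without pseudogenes marked -ps and without the kinases of the Rps6k family. The pattern found 82 of the 26187 genes in the deposited values, of which 32 belonged to the small subunit and 50 to the large subunit, including the 3 stalk genes Rplp0, Rplp1 and Rplp2. In GENCODE M21, 78 of them were protein coding, and Rpl32l, Rpl6l, Rpl37rt and Rps4l were annotated as processed pseudogenes in spite of their symbols. The pattern did not take Rpsa, Rps3a1, Fau and Rack1, whose products are also ribosomal proteins.

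The PAKG group was 3 libraries of cells that received PAKG–8diol–PEG(S) MPs and were harvested after 2 days, the dose being 30 μg/mL. These are small polyester microparticles built from α-ketoglutarate (AKG, an intermediate of the tricarboxylic acid cycle), 1,8-octanediol and polyethylene glycol. The OC group was 3 libraries of cells without MPs in the same OC medium, which held ascorbic acid and β-glycerophosphate for both groups. All libraries came from a single cell line, and the study's methods describe wells seeded in triplicate for its cell experiments without saying whether the 3 RNA samples of a group were such wells or separate cultures, so a p-value here reflects variation among these libraries, which may be technical. No cells given particles without AKG were analysed here, so an effect of AKG and an effect of taking up particles cannot be told apart.

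A cytosolic ribosome carries a single copy of nearly every ribosomal protein, and the stalk is the exception. The small subunit decodes the mRNA, the large subunit forms the peptide bond, and the stalk recruits the GTPases of elongation. Cells usually make these proteins in matched amounts. In mammals their mRNAs start with a run of pyrimidines, the TOP motif, through which LARP1 and mTORC1 set how much of them is translated. This control acts on translation, which the mRNA levels given here do not measure. In osteoblasts ribosomes serve the synthesis of large amounts of collagen.

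The start of these mRNAs was read for the 60 members matched to RefSeq (GRCm38.p6). The letters CTTTCC lay on the sense strand within 25 bases of an annotated start in 11 of 60 members (18.3%) and in 2.92% of the 27025 genes of the same table. CTCTTT, which can overlap CTTTCC by its last letters, was found there in 15.0% of members and 2.25% of genes. CGGAAGT on either strand of the 300 bases around the start, the letters of an ETS family site, was found in 35.0% against 7.20%. TATAAA on the sense strand in the 50 bases before the start was found in 0 of 60 members and in 3.15% of genes. An annotated start was itself a C in 36.7% of members and 18.9% of genes. An annotated start need not be the exact first base of the mRNA, so this does not measure how many members begin with a C. Windows of 30 bases, from 10 before the annotated start to 20 from it, are shown for the small subunit pair on which a result below turns, for Rpl14, and for members of each subunit with the motif, CTTTCC in capitals. They are written 5′ to 3′ on the strand of the gene.
Rps27 (chr3:90213629-90213658, minus strand): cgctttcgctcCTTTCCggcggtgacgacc
Rps27rt (chr9:114982720-114982749, minus strand): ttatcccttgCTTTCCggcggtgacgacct
Rps10 (chr17:27635225-27635254, minus strand): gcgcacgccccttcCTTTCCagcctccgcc
Rpl15 (chr14:18270967-18270996, minus strand): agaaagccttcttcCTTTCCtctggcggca
Rpl28 (chr7:4792955-4792984, plus strand): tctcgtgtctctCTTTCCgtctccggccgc
Rpl35a (chr16:33056472-33056501, plus strand): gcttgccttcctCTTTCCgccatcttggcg
Rpl14 (chr9:120571507-120571536, plus strand): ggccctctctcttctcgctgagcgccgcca
The windows of Rps27 and Rps27rt held an identical run of 19 bases. Rpl14 had no CTTTCC near its start but a run of pyrimidines. A match of letters is a description of these windows only.

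Ribosomal protein mRNAs were among the most abundant of the cells. Levels are given as FPKM, mapped fragments set per length of transcript and per total of a library, which can be compared between genes because they are set per length. Over the 6 libraries the median member was at 227.4 FPKM, while the median of the 12590 genes tested was at 6.407 FPKM. Of the 100 genes with the highest means 28 were members. Rps2, a small subunit protein near the mRNA entry channel, had the highest mean, 1772 FPKM, and ranked 17 among all genes. Rplp0, the base of the stalk, ranked 20 with 1475 FPKM, and Rplp1, one of its acidic partners, ranked 24 with 1238 FPKM. Rps15 and Rpl19 also had means over 1000 FPKM. The 2 subunits had like medians, 203.6 FPKM for the small and 238.5 FPKM for the large.

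Proteins that the ribosome holds in equal number did not have equal FPKM in the deposited values. The level of a single gene also depends on how reads shared with its copies were assigned, which the sources used here do not say. Of the 81 members tested, 5 had a mean of at least 1000 FPKM, 28 lay between 300 and 1000, 24 between 100 and 300, and 24 below 100. Within the stalk, Rplp2 had a mean of 68.16 FPKM beside 1238 FPKM for Rplp1, its partner in the same dimer. In the deposited values copies, here other genes that share a 100-base window, took little there. Of the FPKM of gene and copies, Rplp2 held 92.1% to 93.6% and Rplp1 99.1% to 99.3%. These shares themselves follow from how reads were assigned. Other genes share 30.7% of the 50-base windows of Rplp2 and 60% of those of Rplp1. The part of read assignment in this difference was not tested. Members at 40 FPKM or more numbered 78. Below them were Rpl21, with 39.51 FPKM, and the annotated pseudogenes Rpl37rt, with 9.87 FPKM, and Rpl32l, with 2.415 FPKM. The place of Rpl21 is uncertain, because it held only 2.21% to 3.01% of the FPKM of itself and 40 copies. Rps4l, a pseudogene of the Rps4x family, was at 0.00 to 0.06 FPKM in every library and was not tested. The order of the members was nearly the same in all libraries: over the 15 pairs of libraries, Spearman's rank correlation across the 81 members lay between 0.976 and 0.997. All genes of a library share its depth, and genes are not independent replicates.

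**Figure D1:**
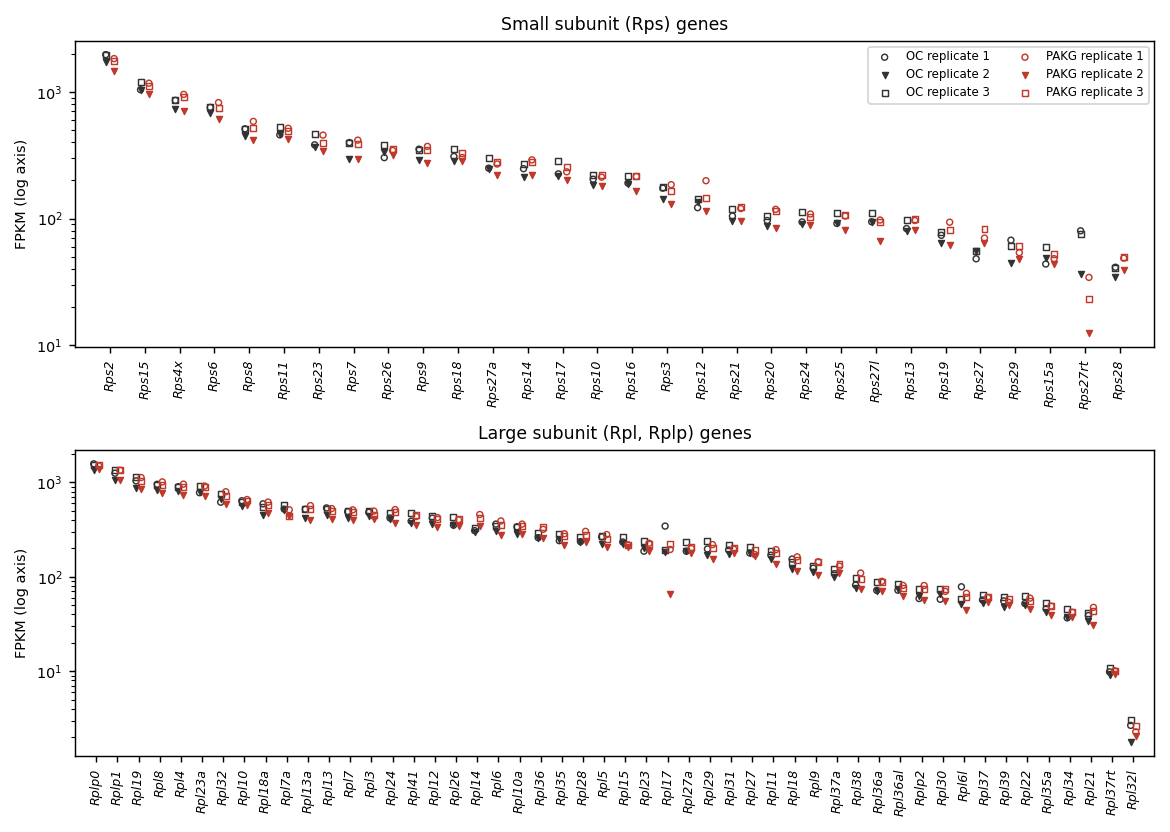
FPKM (log axis) of 30 small subunit (top) and 50 large subunit (bottom) genes tested, ordered by their mean, with 1 point per library (OC grey, PAKG red, replicate 2 of each group filled). The points of most genes lie close together, replicate 2 tends to lie lowest, and Rps27rt and Rpl17 are the widest.

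As a set the members lay at like levels in PAKG and OC. They took 9.48%, 7.99% and 9.14% of all FPKM in PAKG replicates 1, 2 and 3, and 8.67%, 8.32% and 8.91% in the OC replicates. The means were 8.87% ± 0.781 (SD, n = 3) and 8.633% ± 0.297 (SD, n = 3), and the groups overlapped. The median log2 fold change of PAKG against OC, on the log2(FPKM + 0.1) scale, was -0.002 over the 81 members (interquartile range -0.05 to 0.05), with 39 positive and 42 negative values. Over all genes tested the median was -0.032 and the interquartile range -0.19 to 0.13. In bulk RNA, fewer cells of a type and less RNA per cell cannot be told apart, so these are shares of each library's mRNA and not amounts per cell.

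By limma with Benjamini-Hochberg adjustment over all genes, 1 member rose (Rps27) and 1 fell (Rps27rt) at an adjusted p under 0.05, 2 of 81, while 14.7% of all genes tested were called (5.97% higher and 8.73% lower). The number of members that rose was 3 without PAKG replicate 2 and 0 without any other single library, and the number that fell was 0 without OC replicate 1, OC replicate 3, PAKG replicate 2 or PAKG replicate 3. With a fold of at least 2 in addition, 0 members rose and 1 fell, against 1.45% of all genes (0.866% higher and 0.58% lower). At an unadjusted p under 0.05 there were 2 members higher and 1 lower, against 28.8% of all genes. The 3 PAKG and 3 OC values did not overlap for 4 members, Rps27 and Rpl14 higher and Rps27rt and Rpl15 lower, which is 4.94% of the members beside 33.4% of all genes (13.7% higher and 19.6% lower).

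The fit also gave an interval for the change of each member, gene by gene, in the deposited FPKM. These intervals cover variation among these libraries and not the assignment of reads shared with copies. The 95% interval of the log2 fold change lay within a fold of 2 in either direction for 79 of 81 members, all but Rpl17 and Rps27rt, and within 0.5 on the log2 scale for 73. The median interval reached 0.29 to each side of its estimate. Log2 fold changes of 77 members were under 0.25 in size, the others being those of Rps27, Rps27rt, Rpl14 and Rpl17. In these same libraries 6 of 8 osteoblast lineage genes rose, among them Bglap (osteocalcin) with a log2 fold change of 4.36 and Alpl (alkaline phosphatase) with 1.61, and Spp1 (osteopontin) fell by 0.50 on the log2 scale (adjusted p = 0.0186, limma). Of the markers of leukocytes, endothelium, epithelium, cartilage and fat, Cd68 had the highest level, 0.34 to 0.69 FPKM in PAKG and 0.52 to 0.63 FPKM in OC, and Ptprc did not exceed 0.01 FPKM.

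**Figure D2:**
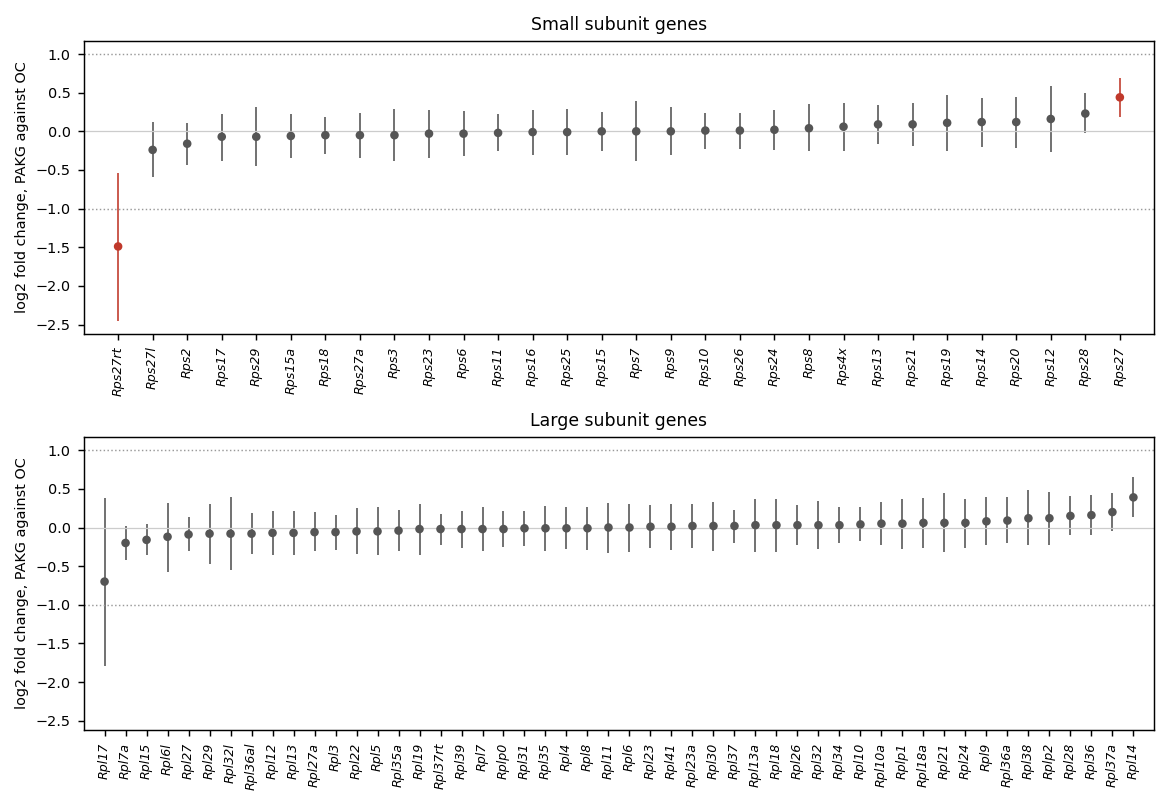
Log2 fold change of PAKG against OC for 80 members tested, with the 95% interval from limma (red: adjusted p under 0.05; dotted lines: a fold of 2). Most estimates lie close to 0, and Rps27rt, Rpl17, Rpl14 and Rps27 stand apart.

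Both subunits had nearly the same median change. The median log2 fold change was -0.002 over 31 small subunit members and -0.003 over 50 large subunit members, a difference of 0.001. The 3 stalk genes had a median of 0.05. The ratio of the summed FPKM of small to large subunit genes was 0.581, 0.573 and 0.575 in PAKG replicates 1, 2 and 3 and 0.582, 0.590 and 0.590 in the OC replicates. These groups did not overlap, with means of 0.5763 ± 0.00416 (SD, n = 3) and 0.5873 ± 0.00462 (SD, n = 3). The ratio rested on Rps2, the largest term of the small subunit. Without it the ratios were 0.483, 0.474 and 0.478 in PAKG and 0.469, 0.479 and 0.484 in OC, and the groups overlapped. In median log2 level the small subunit lay below the large in every library, by -0.23, -0.18 and -0.12 in PAKG and by -0.23, -0.26 and -0.27 in OC.

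The members differed together between replicates. Replicate 2 was the lowest of its group for 80 of 81 members in PAKG (98.8%; the exception was Rpl7a) and for 66 of 81 in OC (81.5%), while over all genes it was lowest for 46.9% and 41.7%. In the other 15 members OC replicate 1 was the lowest. Relative to the mean of replicates 1 and 3, the median member of PAKG replicate 2 was at a fold of 0.796 and that of OC replicate 2 at 0.875. Small and large subunit shared this shift, at folds of 0.795 and 0.796 in PAKG and 0.876 and 0.874 in OC. Shown as the deviation of each gene from its mean over the 6 libraries, the median member was at 0.14, -0.22 and 0.08 log2 in PAKG replicates 1, 2 and 3 and at -0.01, -0.13 and 0.13 in OC.

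Other genes moved with these libraries too. The median of 78 mitochondrial ribosomal protein genes, which serve another ribosome, deviated by 0.12, -0.18 and 0.04 log2 in PAKG and by 0.07, -0.11 and 0.08 in OC. The same values were 0.08, -0.15, 0.07, 0.08, -0.12 and 0.07 for 2558 other genes with a longest transcript under 1500 bases. For 4208 genes of at least 4000 bases they were -0.09, 0.08, -0.07, -0.03, 0.14 and -0.02, highest in replicate 2 of both groups. Replicate 2 was the lowest for 97.4% and 88.5% of the mitochondrial ribosomal genes in PAKG and OC, for 65.6% and 63.8% of the short genes, and for 16.9% and 13.2% of the long genes. The part of transcript length and of the libraries themselves in the shift of the members was not tested.

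**Figure D3:**
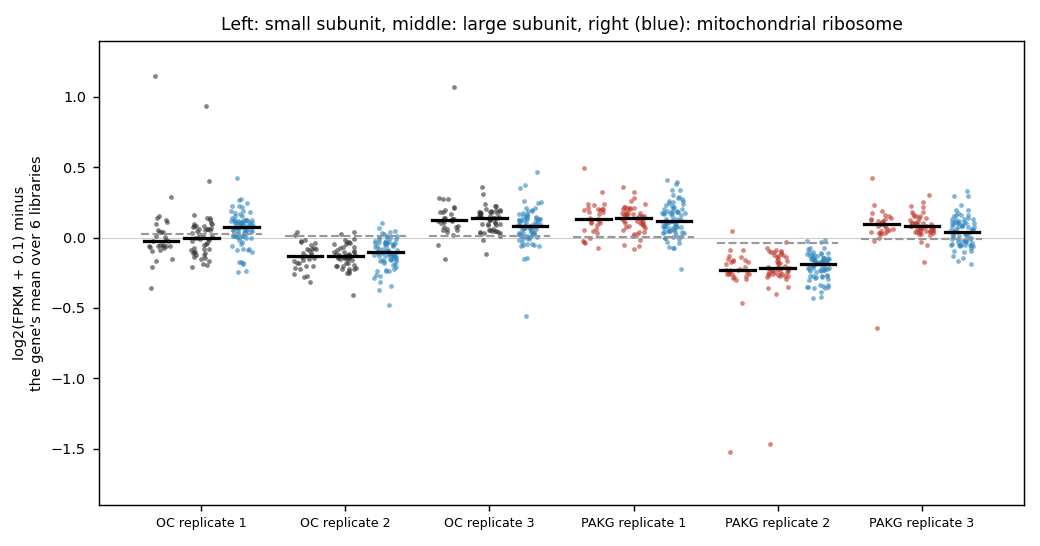
Deviation of each gene from its mean over the 6 libraries, in log2(FPKM + 0.1), for small subunit (left), large subunit (middle) and mitochondrial ribosomal protein genes (right, blue) in each library, with medians as black bars and the median of all genes as a dashed line. Replicate 2 of both groups lies below 0 in all 3 gene groups while the median of all genes stays near 0.

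The median spread of the members between replicates was larger than that of all genes. The SD of log2 values between replicates had a median of 0.180 over the members (0.186 for the small and 0.170 for the large subunit) and 0.139 over all genes tested, although members are abundant. This was not particular to the members. The median SD was 0.167 over the mitochondrial ribosomal protein genes and 0.233 over the other genes under 1500 bases, beside 0.134 over the genes of at least 4000 bases. Of 81 members, 15 were below the median of all genes. With the replicate number as a block the median residual SD was 0.10 for members and 0.080 for all genes, and without replicate 2 of both groups the medians were 0.098 and 0.081. Scaling each library to its median member, which by construction lowers the spread of the members, gave 0.071 for members and 0.198 for all genes. Rplp0 had the smallest SD, 0.0955, with 1496.59, 1386.35 and 1514.33 FPKM in PAKG and 1576.40, 1352.48 and 1523.39 FPKM in OC. Its values overlapped between the groups (log2 fold change -0.02, SE 0.10). Only Rpl17, Rps27rt, Rpl32l and Rpl6l had an SD over 0.3.

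**Figure D4:**
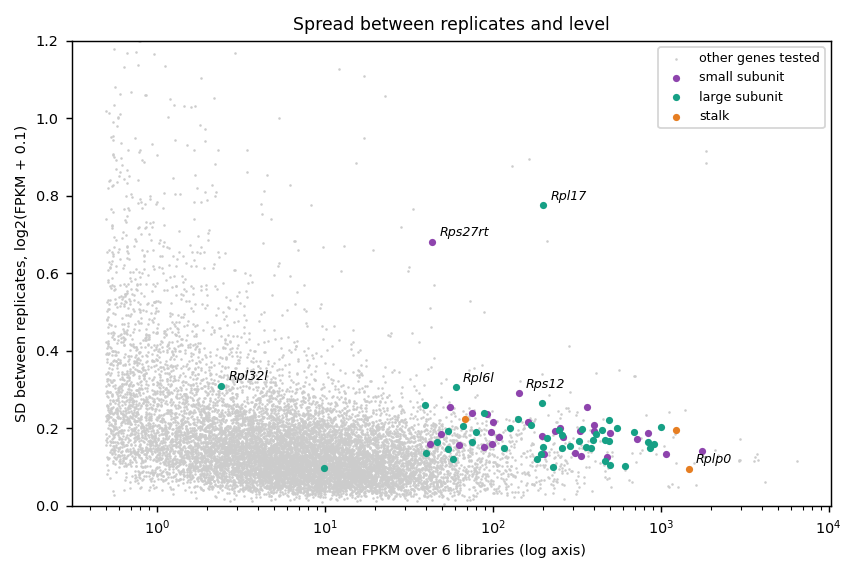
SD of log2(FPKM + 0.1) between replicates, pooled over both groups, against the mean FPKM (log axis) for all genes tested (grey), small subunit (purple), large subunit (green) and stalk genes (orange); 56 genes have an SD above the axis limit of 1.2. Most members lie in a band near 0.180, and Rpl17 (0.775) and Rps27rt (0.681) lie far above genes of like level.

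The labels do not say that equal replicate numbers pair the libraries. That pairing was taken from correlations in these same values. Block p-values and comparisons by number, here and below, rest on it and add no independent support. With the replicate number as a block, 5 members were called, at a background of 29.5% of all genes (12.3% higher and 17.1% lower). Rps27, Rpl14, Rps28 and Rpl37a rose and Rps27rt fell. The same 5 were called where the trend of each library with transcript length had been removed, at a background of 24.8%. Without replicate 2 of both groups Rps27, Rpl14 and Rps28 rose and Rps27rt fell, at a background of 21.9%. With each library scaled to the median member, Rpl14 rose and Rps27rt fell, at a background of 5.12%.

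Among the small subunit genes, Rps27 and its retrogene copy Rps27rt moved in opposite directions. Rps27 encodes a zinc finger protein of the small subunit and lies on chromosome 3 at 90212522 to 90213651 (GRCm38, minus strand). It was at 70.16, 63.85 and 82.70 FPKM in PAKG and at 48.17, 55.64 and 55.50 FPKM in OC. All PAKG values lay above all OC values. The log2 fold change was 0.44 (SE 0.11, adjusted p = 0.0372 by limma, 0.0148 with the replicate block). The adjusted p was 0.0619 to 0.123 without any single library other than PAKG replicate 2.
Rps27rt lies on chromosome 9 at 114982366 to 114982739 (minus strand), in a transcript of 374 bases. It was at 34.36, 12.51 and 23.04 FPKM in PAKG and at 80.08, 36.65 and 75.86 FPKM in OC. The groups did not overlap, although OC replicate 2 lay close to PAKG replicate 1. The log2 fold change was -1.49 (SE 0.41, adjusted p = 0.0495 by limma, 0.000704 with the replicate block). Without OC replicate 1, OC replicate 3, PAKG replicate 2 or PAKG replicate 3 the adjusted p was 0.0637 to 0.163.

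These values are uncertain, because the transcripts share most of their sequence. Of the 50-base windows of Rps27rt, 91.1% also occur in Rps27, and 63.1% of those of Rps27 occur in Rps27rt. The longest stretch in common is 307 bases, in a 458-base transcript of Rps27 and the 374 bases of Rps27rt. A read from this stretch could have been assigned to either gene, and the sources used here do not say how such reads were assigned. Added up with Gm17241, the remaining gene that shares a 100-base window, the family was at 105.74, 76.73 and 106.70 FPKM in PAKG and at 129.16, 92.86 and 132.23 FPKM in OC. These sums overlapped, with a log2 fold change of -0.29, and each PAKG sum was below the OC sum of its number. FPKM are set per length, so a read assigned to a transcript of another length would change such a sum by itself. This limit holds for all sums of a gene and its copies given here. Rps27 held 66.4%, 83.2% and 77.5% of the sum in PAKG and 37.3% to 59.9% in OC. Each value of PAKG was above each of OC. Rps27l, the paralog known as a target of p53, shares no 50-base window with Rps27. It was at 97.35, 66.23 and 93.14 FPKM in PAKG and 94.27, 93.97 and 111.08 FPKM in OC, which overlapped (log2 fold change -0.24, adjusted p = 0.358 by limma).

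Rps28, a protein near the mRNA exit of the small subunit, was at 48.72, 39.58 and 49.47 FPKM in PAKG and at 41.31, 34.78 and 40.69 FPKM in OC. The groups overlapped through PAKG replicate 2, although each PAKG replicate was above the OC replicate of its number. The log2 fold change was 0.23 (SE 0.11), with an adjusted p of 0.212 by limma and 0.0140 with the replicate block. Rps2 was at 1824.52, 1461.29 and 1734.71 FPKM in PAKG and at 1959.55, 1715.19 and 1937.57 FPKM in OC. Each PAKG replicate was below the OC replicate of its number, and the groups overlapped (log2 fold change -0.16, SE 0.12, adjusted p = 0.415 by limma). Rps15, at the decoding side of the subunit, lay between 963.03 and 1187.16 FPKM with a log2 fold change of -0.00. Rps6, the phosphorylated target of kinases under mTORC1, lay between 604.04 and 820.80 FPKM with a log2 fold change of -0.03. Rps12 varied most after Rps27rt, through PAKG replicate 1, with 198.82, 115.56 and 143.92 FPKM in PAKG and 121.90, 135.91 and 142.96 FPKM in OC. It held 24.1% of the FPKM of itself and its copies in PAKG replicate 1 and 14.7% to 20% in the other libraries. The sum of gene and copies had an SD of 0.17 on the log2 scale, beside 0.29 for Rps12 alone. The part of read assignment in this was not tested.

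Among the large subunit genes, Rpl14 differed most clearly. Rpl14 encodes a protein on the surface of the large subunit and lies on chromosome 9 at 120571444 to 120574654 (plus strand). It was at 458.02, 348.79 and 425.04 FPKM in PAKG and at 308.72, 299.68 and 328.37 FPKM in OC. All PAKG values lay above all OC values. The log2 fold change was 0.39 (SE 0.11), with an adjusted p of 0.0583 by limma, above the threshold, and 0.0163 with the replicate block.
Its copy Rpl14-ps1, with which it shares 49.3% of its 50-base windows, was at 392.06, 310.57 and 376.40 FPKM in PAKG and at 221.82, 292.27 and 327.57 FPKM in OC (log2 fold change 0.37, adjusted p = 0.170 by limma). The copy overlapped between the groups and had the same sign as the gene. Their sum was 850.08, 659.36 and 801.44 FPKM in PAKG and 530.54, 591.95 and 655.94 FPKM in OC. It was the only sum over a member and its copies, of 73 members with such copies, whose groups did not overlap. Among all genes tested, taken singly, the groups did not overlap for 33.4% (13.7% higher and 19.6% lower).

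Rpl37a, a zinc finger protein of the large subunit, was at 129.88, 110.34 and 135.46 FPKM in PAKG and at 108.05, 98.72 and 119.99 FPKM in OC. The groups overlapped, and each PAKG replicate was above the OC replicate of its number. The log2 fold change was 0.20 (SE 0.11), with an adjusted p of 0.268 by limma and 0.0254 with the replicate block. Rpl7a, which binds ribosomal RNA at the rear of the subunit, was at 513.57, 443.21 and 441.29 FPKM in PAKG and at 522.21, 512.33 and 570.96 FPKM in OC (log2 fold change -0.20, adjusted p = 0.205 by limma). PAKG replicate 1 reached into the OC values. Rpl15 was at 219.04, 206.64 and 218.65 FPKM in PAKG and at 234.00, 221.59 and 264.50 FPKM in OC. All its PAKG values lay below all OC values, by a log2 fold change of -0.16 (SE 0.09, adjusted p = 0.283 by limma). Rpl19 and Rpl8, the most abundant genes of the large subunit after the stalk, had log2 fold changes of -0.02 and -0.01.

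Rpl17, whose protein lines the exit tunnel of the nascent peptide, had the largest spread of all members. It was at 195.17, 65.16 and 222.37 FPKM in PAKG and at 345.19, 183.88 and 192.31 FPKM in OC. PAKG replicate 2 was far below the rest and OC replicate 1 far above, and the groups overlapped (log2 fold change -0.70, SE 0.46, adjusted p = 0.375 by limma). The deposited values hold 16 other genes that share a 100-base window with it, among them Rpl17-ps10. That copy was at 202.27, 340.82 and 154.78 FPKM in PAKG and at 106.06, 160.39 and 307.96 FPKM in OC. It was highest in the library where Rpl17 was lowest, and lowest in the library where Rpl17 was highest. Other abundant copies did so only in part. Rpl17-ps3, Rpl17-ps5, Rpl17-ps8 and Rpl17-ps9 were also lowest in OC replicate 1. Within PAKG, however, Rpl17-ps3, Rpl17-ps8 and Rpl17-ps9 were lowest in replicate 2, as Rpl17 was, and Rpl17-ps5 was lowest in replicate 3.
The sum over Rpl17 and its copies was 947.95, 876.01 and 857.17 FPKM in PAKG and 774.37, 736.96 and 957.87 FPKM in OC. Its SD was 0.152 on the log2 scale, beside 0.775 for Rpl17 alone, and its log2 fold change was 0.13. Rpl17 held 7.44% to 44.6% of this sum. A sum over many genes can vary less than a gene within it, also where no reads are exchanged. The part of read assignment in the spread of Rpl17 was not tested.

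**Figure D5:**
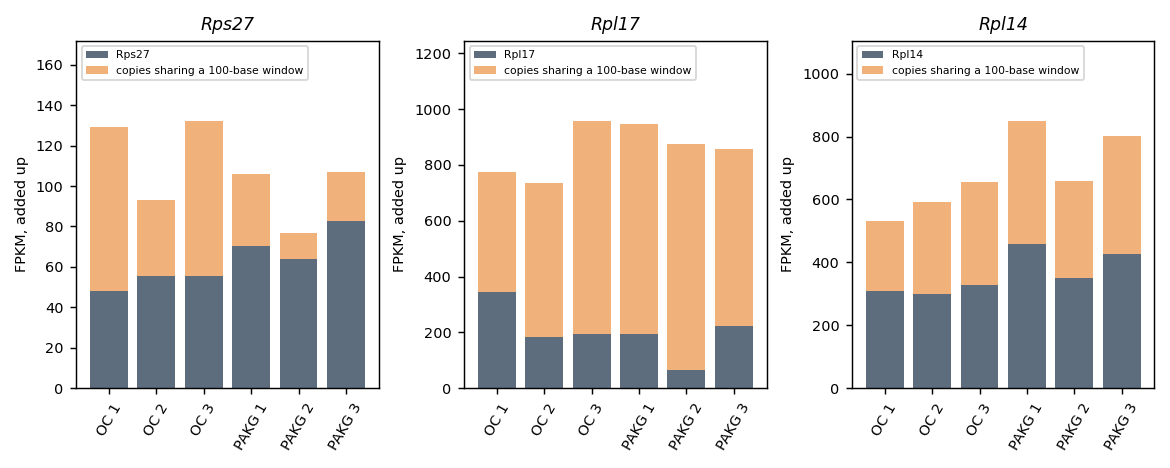
FPKM per library of Rps27, Rpl17 and Rpl14 (grey) with the genes that share a 100-base window stacked on top (orange). The grey part is higher in PAKG than in OC for Rps27 while the full bars overlap, the grey part of Rpl17 changes more between libraries than the full bar, and gene and copy of Rpl14 are both higher in PAKG replicates 1 and 3.

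Most members shared sequence with other genes. Not all of these genes are copies by name, as Snora7a, which shared most with Rpl32, and Wdr89, which shared most with Rplp2. Of the 78 protein-coding members, the median shared 41% of the 50-base windows of its transcripts with other genes of GENCODE M21, and 28 shared over 50%. Across these members Spearman's correlation of the shared percentage with the SD was -0.10. In 14 members the gene itself held under 50% of the sum of gene and copies in at least 1 library, the lowest being Rpl21 with 2.21% to 3.01% beside 40 copies. Rps12 held 14.7% to 24.1% of its sum. Log2 fold changes of these sums lay between -0.29 and 0.37.

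The stalk genes followed the rest. Rplp1 was at 1347.53, 1060.36 and 1367.19 FPKM in PAKG and at 1254.83, 1052.06 and 1344.14 FPKM in OC, with a log2 fold change of 0.05 (SE 0.14). Rplp2 was at 81.03, 57.23 and 75.20 FPKM in PAKG and at 58.96, 62.37 and 74.19 FPKM in OC, with a log2 fold change of 0.12 (SE 0.14). Both overlapped between the groups.

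Genes that work with the ribosome were read from lists of their own. None of the 7 ribosome genes outside the symbol pattern passed the test (limma, adjusted p under 0.05), and their median log2 fold change was 0.03. At an unadjusted p under 0.05 they also numbered 0, against 28.8% of all genes. Rpsa, a small subunit protein, was at 862.80, 640.88 and 792.67 FPKM in PAKG and at 1003.44, 716.88 and 894.64 FPKM in OC, with overlapping groups (log2 fold change -0.18, adjusted p = 0.497, and 0.0429 with the replicate block). Of 78 mitochondrial ribosomal protein genes 0 rose and 1 fell, against 5.97% and 8.73% of all genes. The gene that fell was Mrpl42, by 0.56 on the log2 scale (adjusted p = 0.0200, limma). The median log2 fold change of the 78 was -0.05, and with the replicate block 5 rose and 5 fell, against 12.3% and 17.1% of all genes. Of 28 genes of elongation and initiation with other TOP mRNAs, 0 rose and 4 fell. These 4 are 14.3% of the list, beside 8.73% of all genes called lower and 14.7% called in either direction. With the block 0 rose and 6 fell, against 12.3% and 17.1% of all genes. The 4 called without the block were the histone chaperone Nap1l1 (log2 fold change -0.37), the RNA-binding protein Hnrnpa1 (-0.38), and the initiation factor subunits Eif3c (-0.27) and Eif3l (-0.31), with adjusted p from 0.0183 to 0.0411 (limma). Eef1a1, the elongation factor that delivers aminoacyl-tRNA, was the most abundant of them, with a mean of 3998 FPKM in PAKG and 4322 FPKM in OC (log2 fold change -0.11, adjusted p = 0.528 by limma).

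None of 67 ribosome biogenesis genes passed the test (limma, adjusted p under 0.05), with a median log2 fold change of -0.04. At an unadjusted p under 0.05, 1 of the 67 was higher and 4 were lower, against 28.8% of all genes in either direction. With the replicate block, under which 12.3% of all genes rose and 17.1% fell, 2 of them rose, Myc and Ltv1, and 8 fell, among them the RNA polymerase I and III subunit Polr1c (log2 fold change -0.23, adjusted p = 0.0128) and the rRNA methyltransferase Fbl (-0.19, adjusted p = 0.0232). Of 15 tested genes that regulate TOP mRNAs or belong to mTORC1 and its translation arm, 0 passed the test by limma. At an unadjusted p under 0.05, 0 were higher and 2 lower, beside the same 28.8% of all genes. With the block 0 rose and 3 of 15 fell, beside the same 17.1% of all genes, Eif4ebp1 (-0.36, adjusted p = 0.00384), Rps6ka3 (-0.38, adjusted p = 0.00570) and Larp4 (-0.21, adjusted p = 0.0291). Larp1 itself, which binds the TOP motif, was at 37.85, 39.93 and 37.56 FPKM in PAKG and at 36.71, 43.05 and 37.00 FPKM in OC, with a log2 fold change of -0.01 (SE 0.08). Of 142 ribosomal protein pseudogenes tested, 0 rose and 1 fell, against 5.97% and 8.73% of all genes. The pseudogene that fell was Rpl30-ps10, by 0.69 on the log2 scale (adjusted p = 0.0282, limma). With the block 2 pseudogenes rose and 7 fell, against 12.3% and 17.1% of all genes. Pseudogenes took 1.46% to 1.67% of all FPKM in the 6 libraries.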

How the data were processed

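Poly(A) RNA of 3 PAKG and 3 OC samples was sequenced from stranded libraries. The authors deposited FPKM per gene and library, rounded to 2 decimals. For GRCm38, the tools in the submitters' processing notes are HISAT2, StringTie, DESeq2, cutadapt and FastQC. Their versions, and how reads mapping to several genes were handled, were not given in the sources used here. No counts were used. From the smallest steps of FPKM in short genes, depth was estimated at 32200000 to 41500000 fragments per library, at which 78 members had at least 500 fragments in every library and Rpl32l had the fewest, 26.

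The 12590 genes averaging 0.5 FPKM or more were tested by limma 3.58.1 (R 4.3.3, empirical Bayes with trend, 2-sided) on log2(FPKM + 0.1), with Benjamini-Hochberg adjustment over all of them. The script was tested on simulated data with 200 changed genes. The members and lists were chosen with earlier results of these data known. Genes named are mainly those called and those below 10 FPKM. To these were added the 4 smallest p, 2 most abundant and 2 most variable per subunit and stalk. Some others, among them Rps6 and Rpl21, were named outside this rule. Deviations of same-numbered samples from their group means correlated over all genes (0.240, 0.430 and 0.192 for numbers 1, 2 and 3, against -0.312 to 0.138 for other numbers), so the numbers were treated as pairs. This pairing comes from the data, not from the labels. Over the members alone the correlations were 0.502, 0.492 and -0.298, against -0.619 to 0.406 for other numbers. For the members, the pairing of number 3 did not hold in these correlations. Shared windows were counted in GENCODE M21 transcripts. There were 18 alternatives, of which scaling to the members and removing the length trend were chosen after seeing the data. Some single genes counted among the members and lists are not reported here by name or in the plots by gene.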

Additional observations from a re-analysis of the deposited data

How the results depend on the processing

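Only 1 member was called higher and 1 lower, so single choices moved these counts. The number higher was 2 with a common total (TPM), 2 with a common total of other nuclear genes and 2 with median-ratio scaling, 0 with no filter, 0 without the mean-variance trend, 3 without replicate 2 of both groups, 4 with the replicate block, 4 with the length trend removed, and 0 to 3 when single libraries were left out (3 without PAKG replicate 2, 0 without each other library). The number lower, with or without the fold threshold, was 0 with no filter, 0 without the trend and 0 to 1 when single libraries were left out. The call of Rps27 held in 10 of 18 alternatives (adjusted p 0.0148 to 0.123) and was lost without OC replicate 1 (0.118), OC replicate 2 (0.0619), OC replicate 3 (0.0945), PAKG replicate 1 (0.0851) or PAKG replicate 3 (0.123). That of Rps27rt held in 12 of 18 (0.000704 to 0.163) and was lost without OC replicate 1 (0.146), OC replicate 3 (0.163), PAKG replicate 2 (0.0637) or PAKG replicate 3 (0.116). Rpl14 was called in 8 of 18 (0.00326 to 0.200), Rps28 in 4 and Rpl37a in 2. Relative to the median member, Rpl14 rose (adjusted p = 0.0222), Rps27rt fell (0.0212) and Rps27 was not called (0.0771). The difference between small and large subunit, 0.001, lay between -0.005 and 0.019 with single libraries left out. The median log2 fold change of the members lay between -0.064 and 0.102 over all alternatives, within the spread between libraries. The cause of these moves was not tested. The block changed no call of a member other than those given. Depth did not limit most members, but with 3 libraries per group the 95% interval of the median member reached 0.29 log2 to each side.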
